A study of Mus musculus with 5 samples.

Results

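The 41 genes described here are the classical imprinted genes of the mouse, which lie in 20 clusters, among 53843 genes annotated on chromosomes 1 to 19 and X. They were chosen by name, from *Peg3* and *Gnas* to *Peg13* and *Trappc9*, and all 41 were found in GENCODE release M21 on mm10 (GRCm38). A peak was given to a gene when its summit lay in the gene body or within 5 kb of it. Peaks in the windows of several members were counted once whenever peaks rather than genes were counted, and the 41 windows merge into 30 regions of 2.92 Mb in all.

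The study asked where the ubiquitin ligase RNF12 (encoded by *Rlim*) and its substrate REX1 (encoded by *Zfp42*) sit on chromatin, by ChIP-seq in female mESCs of the 129/Sv-Cast/Ei hybrid strain. The deposited data are 3 lists of peaks, from 1 library each, named REX1, RNF12 WT and RNF12 H569A,C572A, with 96050, 97602 and 98124 peaks. With 1 library per list there are no replicates, no test is given, and intervals over peaks or genes cover counting error only, since peaks and genes are not replicates. The 2 control libraries, from WT cells, were not analysed here, and no total of reads is given with the lists, so depth is unknown, and they hold no expression values with which to check the cell type.

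For both RNF12 lists, the cells were *Rlim*+/- mESCs with a stably integrated FLAG-V5 transgene for RNF12 WT or for RNF12 H569A,C572A, driven by the strong CAG promoter and selected with puromycin. The RNF12 H569A,C572A protein, called the RNF12 mutant below, carries both substitutions in the RING domain that ligase activity needs. These cells were treated with 15 μM MG132, a proteasome inhibitor, for 3 h, and cross-linked with 2 mM DSG and 1% formaldehyde, and chromatin was precipitated through the V5 tag. For REX1, the labels give WT mESCs with FLAG-V5-REX1, while the study refers to earlier work for REX1 occupancy; the treatment behind that list was not settled here. Each V5-tagged protein came on top of the endogenous one in cells that still carried at least 1 *Rlim* allele. The authors pooled the reads of both parental alleles before calling peaks, so the lists cannot say on which allele of an imprinted gene a protein sat.

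Imprinted genes are expressed mainly from the maternal or mainly from the paternal copy. The choice is set by DNA methylation laid down in the germ line at control regions, and it spreads through a cluster by long non-coding RNAs, insulators and silenced promoters. REX1 is a zinc finger protein of the YY1 family, with fingers much like those of YY1, and the *Peg3* and *Nespas* control regions are among its known targets, so both loci serve as reference points below. RNF12 is known for the ubiquitylation of REX1, which leads to its degradation.

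The sequences under the REX1 peaks of *Peg3* are shown first because they hold the string AAGATGGC, the core of the YY1 motif, 11 times. Every copy lay within the 3 REX1 peaks that together ran from chr7:6727245-6729818, a stretch of 2574 bp in *Peg3*, and every copy was on the plus strand, opposite to the direction of *Peg3* transcription. Each line gives 32 bases of GRCm38, plus strand, 5′ to 3′, with the 8 letters of the core in capitals.
chr7:6727289-6727320: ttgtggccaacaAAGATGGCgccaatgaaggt
chr7:6727411-6727442: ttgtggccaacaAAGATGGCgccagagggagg
chr7:6727833-6727864: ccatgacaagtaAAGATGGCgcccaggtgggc
chr7:6727922-6727953: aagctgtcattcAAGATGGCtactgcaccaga
chr7:6727952-6727983: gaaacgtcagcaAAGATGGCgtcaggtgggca
chr7:6728390-6728421: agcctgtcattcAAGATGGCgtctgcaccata
chr7:6728439-6728470: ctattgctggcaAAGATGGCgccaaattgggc
chr7:6728727-6728758: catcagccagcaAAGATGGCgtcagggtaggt
chr7:6728868-6728899: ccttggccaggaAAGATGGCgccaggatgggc
chr7:6729471-6729502: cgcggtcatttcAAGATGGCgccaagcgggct
chr7:6729577-6729608: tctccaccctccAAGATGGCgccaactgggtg
Neighbouring cores lay 30 to 603 bp apart, with a median of 131.5 bp.

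At *Peg3*, which encodes a zinc finger protein and is expressed from the paternal copy, REX1 had 3 peaks and all of them were among the strongest of its list. Strength is given as the fold enrichment over the control, which is used only within a list, and as the percent rank, the percent of peaks in the same list with a lower fold enrichment. Where 3 values are given without names, they stand for REX1, RNF12 WT and the RNF12 mutant, in that order. Measured from the most upstream *Peg3* transcription start site (TSS), the REX1 summits were 928, 2530 and 3086 bp downstream, with fold enrichments of 11.6, 13.9 and 9.45 and percent ranks of 98.1, 99.0 and 96.1. These positions fall in an intron of *Peg3*, over the cores, which run from 842 to 3130 bp downstream of that TSS.

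Around the highest of these summits, 9 cores lay within 1 kb. Of all 95744 REX1 summits on the chromosomes used, 36 (0.0376%) had as many, while 19.9% had at least 1. The member summits with at least 3 cores were the 3 of *Peg3*, and no REX1 summit at another imprinted gene had as many.

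The RNF12 peaks at the 5′ part of *Peg3* were weaker within their lists. RNF12 WT had summits 170, 965 and 1860 bp downstream of the *Peg3* TSS, with percent ranks of 6.89, 31.6 and 84.2. The RNF12 mutant had 4, at 102, 737, 913 and 1973 bp, with percent ranks of 54.5, 48.2, 68.6 and 20.6. The summits at 170, 102 and 737 bp lay between the TSS and the cores, and the others among the cores. Of the 11 cores, 1 was inside an RNF12 WT peak and 2 were inside an RNF12 mutant peak. So all 3 lists marked this control region, and only the REX1 list did so with peaks in its top 10%.

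At *Zim1*, in the same cluster, REX1 had the lowest percent rank of the 3 lists. This gene is maternally expressed and encodes a zinc finger protein, and at its TSS RNF12 WT had a fold enrichment of 10.7 and a percent rank of 99.6, the RNF12 mutant had 11.9 and 81.1, and REX1 had 5.37 and 72.3. The *Zim1* peak at chr7:6696318-6696600 was the strongest RNF12 WT peak of the whole cluster and overlapped a peak of both other lists. *Usp29*, a deubiquitinase gene that starts back to back with *Peg3*, had 7, 10 and 10 peaks in the REX1, RNF12 WT and RNF12 mutant lists. Its highest REX1 peak was the one over the *Peg3* cores, and its highest RNF12 WT and RNF12 mutant peaks lay elsewhere, with percent ranks of 90.3 and 78.4. The 32 bases at that last summit occur 232 times in the genome, so these bases alone cannot place a read. The rest of that peak was not checked.

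**Figure D1:**
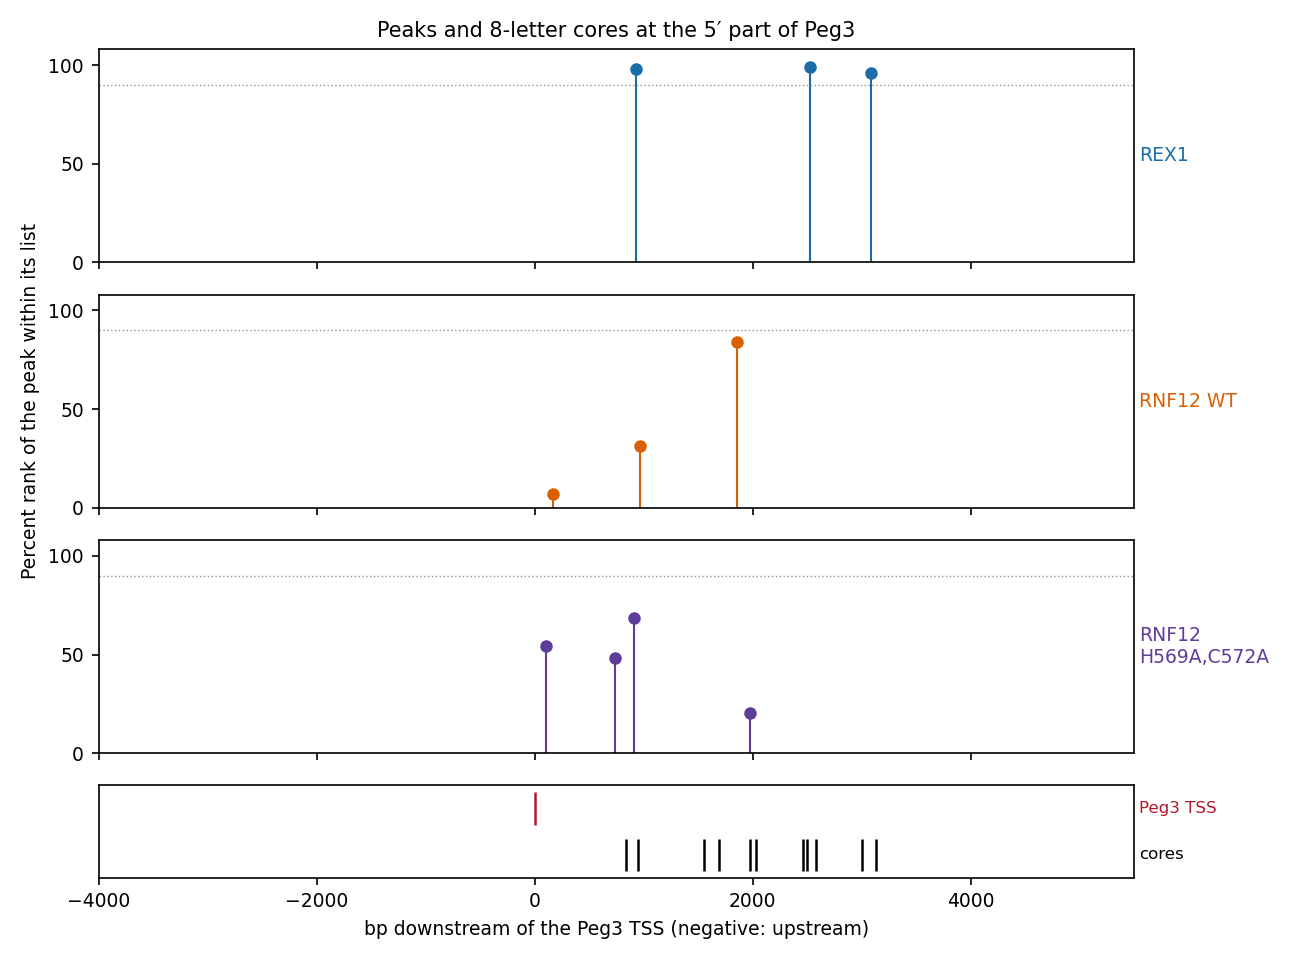
Peak summits of the 3 lists at the 5′ part of *Peg3*, as percent rank within the list (vertical axis, dotted line at 90) against distance in bp from the most upstream *Peg3* TSS (horizontal axis), with the 11 AAGATGGC cores and the TSS as ticks. The 3 REX1 summits, at percent ranks of 96.1 to 99.0, stand over the cores, while the RNF12 summits there reach 84.2 at most.

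The second reference point, *Gnas* with *Nespas*, was the member locus with the most sites shared by all 3 lists. *Gnas* encodes the stimulatory G protein subunit and several alternative products from promoters that differ in their expressed parental copy, and *Nespas* is the paternally expressed antisense RNA of the locus. REX1 had 23 peaks there, RNF12 WT 18 and the RNF12 mutant 22. Merged over the lists these were 24 sites, of which 9 (37.5%) were in all 3 lists, against 56 of 336 (16.7%) over all members.

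The highest REX1 peak of the locus was at the *Nespas* promoter, chr2:174295190-174295870, with its summit 189 bp upstream of a *Nespas* TSS. Its fold enrichment was 14.5, its percent rank 99.1 and its rank 817 of 96050, and it overlapped peaks of both RNF12 lists. The RNF12 peaks in the block that holds the *Nespas* promoter and the next *Gnas* promoter, chr2:174294498-174300977, were lower, with percent ranks of up to 71.2 for RNF12 WT and up to 63.4 for the RNF12 mutant. REX1 had 8 peaks in this block, RNF12 WT 7 and the RNF12 mutant 9.

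For RNF12 the strongest peaks of the locus lay further downstream, in the block with 10 *Gnas* TSSs at chr2:174327291-174334653. The highest RNF12 WT summit was 554 bp downstream of a *Gnas* TSS, with a fold enrichment of 9.39 and a percent rank of 99.1. The highest RNF12 mutant summit was 283 bp downstream of one, with 12.7 and 83.5. REX1 had 8 peaks in the same block, and the highest was at a percent rank of 88.9. At the most upstream *Gnas* promoters, chr2:174284144-174286716, the highest percent ranks were 90.7 for REX1, 95.2 for RNF12 WT and 70.8 for the RNF12 mutant. The promoter with the highest peak was thus not the same for REX1 as for the RNF12 lists.

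**Figure D2:**
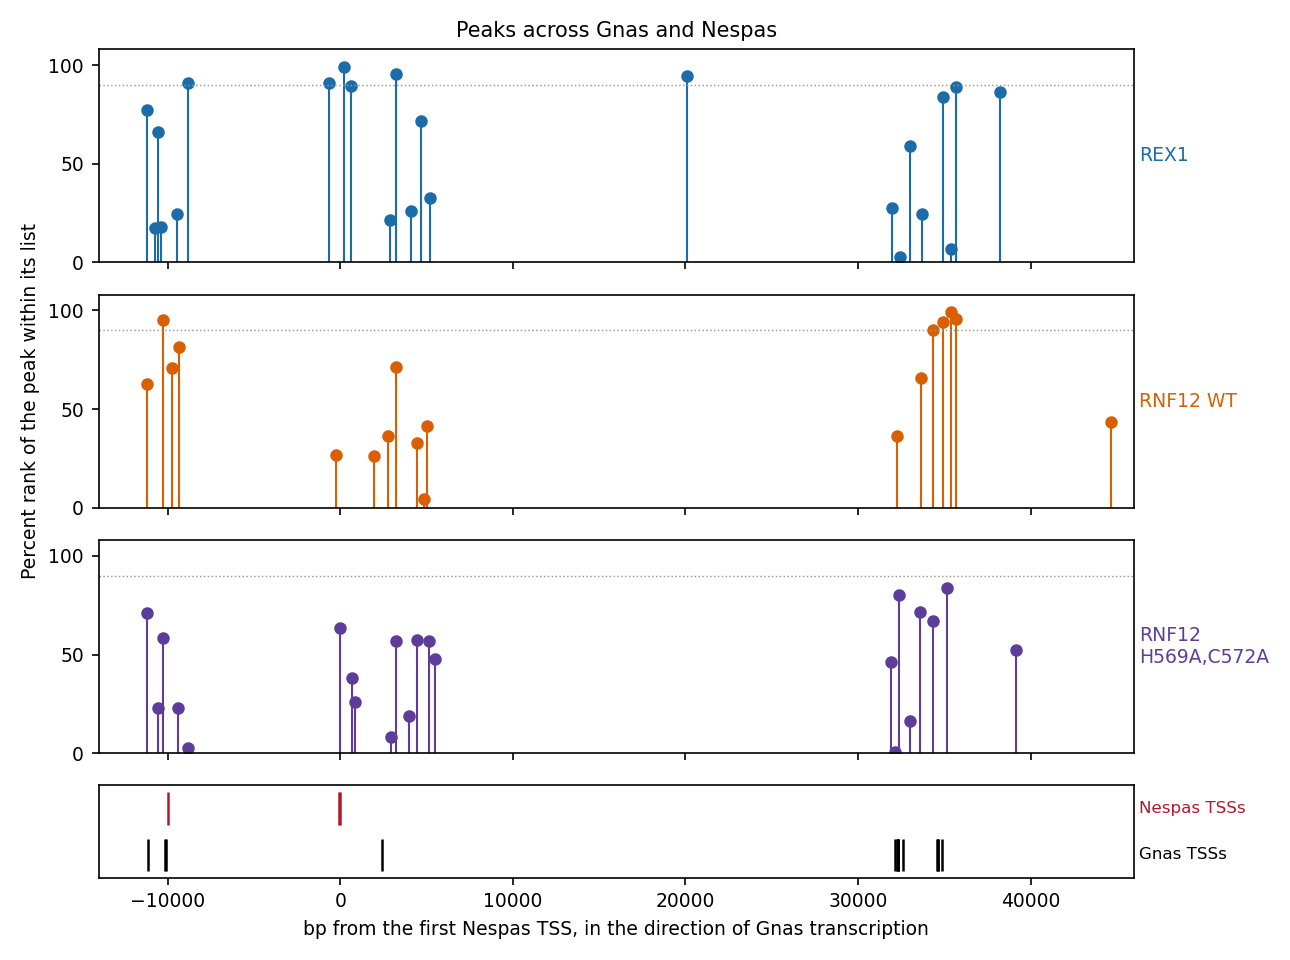
Peak summits of the 3 lists across *Gnas* and *Nespas*, as percent rank within the list (vertical axis, dotted line at 90) against distance in bp from the first *Nespas* TSS in the direction of *Gnas* transcription (horizontal axis), with annotated TSSs as ticks. The REX1 maximum of 99.1 stands at the *Nespas* promoter and the RNF12 WT maximum of 99.1 at the downstream *Gnas* promoters.

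The bases under the highest peaks of other imprinted genes are shown next because they lack the *Peg3* arrangement. Capitals mark ATGGC, or GCCAT on the other strand, the 5 letters that AAGATGGC shares with ATGGCNGC, a second string searched as a REX1 core. All lines are plus strand of GRCm38, 5′ to 3′, around the summit of the highest peak of the list named.
*Nespas*, REX1, chr2:174295565-174295685: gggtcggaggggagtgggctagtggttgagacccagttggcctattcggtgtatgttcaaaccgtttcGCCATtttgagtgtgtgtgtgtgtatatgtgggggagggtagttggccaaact
*Igf2r*, REX1, chr17:12688094-12688214: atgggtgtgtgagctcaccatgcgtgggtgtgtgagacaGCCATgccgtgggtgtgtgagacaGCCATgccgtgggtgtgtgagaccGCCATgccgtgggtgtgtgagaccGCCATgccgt
*Meg3*, REX1, chr12:109542790-109542910: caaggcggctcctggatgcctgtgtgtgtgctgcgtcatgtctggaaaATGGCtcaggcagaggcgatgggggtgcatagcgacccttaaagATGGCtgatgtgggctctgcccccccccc
*Snrpn*, REX1, chr7:60005121-60005211: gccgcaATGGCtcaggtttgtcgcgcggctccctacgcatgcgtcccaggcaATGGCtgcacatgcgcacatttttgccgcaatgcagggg
*Peg10*, RNF12 WT, chr6:4749328-4749448: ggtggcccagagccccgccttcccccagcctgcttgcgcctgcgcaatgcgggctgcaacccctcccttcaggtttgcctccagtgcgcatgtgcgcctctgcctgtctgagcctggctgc
*Gnas*, RNF12 WT, chr2:174330781-174330901: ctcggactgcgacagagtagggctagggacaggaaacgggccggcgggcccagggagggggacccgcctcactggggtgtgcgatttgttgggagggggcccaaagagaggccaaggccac
*Ube3a*, RNF12 mutant, chr7:59228625-59228745: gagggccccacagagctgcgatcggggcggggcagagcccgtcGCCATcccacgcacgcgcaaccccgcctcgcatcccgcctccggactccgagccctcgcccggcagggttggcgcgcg
Each of the 4 REX1 windows and the RNF12 mutant window hold the 5 letters at least once, and both RNF12 WT windows hold none. In the *Igf2r* window they recur 4 times at a spacing of 24 bp. Matches are a description of the letters and not of binding, since 37.0% of all REX1 summits, 20.7% of all RNF12 WT summits and 15.7% of all RNF12 mutant summits have ATGGC within 50 bp. At the members the shares were 33.3%, 24.8% and 22.8%.

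All 41 imprinted genes had at least 1 REX1 peak and at least 1 RNF12 mutant peak, and 36 had an RNF12 WT peak. Among all annotated genes, 54.0% had a REX1 peak, 54.6% an RNF12 WT peak and 57.4% an RNF12 mutant peak. The same 36 members had a peak in all 3 lists, against 43.7% of all genes. With only the 20000 peaks of highest −log10 q (the significance the peak caller gave) in each list, 31 members had a REX1 peak (29.6% of all genes), 30 an RNF12 WT peak (30.8%), 19 an RNF12 mutant peak (23.8%) and 14 a peak in all 3 lists (12.6%). The 95% Wilson interval of 36 of 41 is 74.5% to 94.7%; it covers counting error only, and members of a cluster share windows, so they are not independent. The 5 members without an RNF12 WT peak were *H19*, *Dlk1*, *Rtl1*, *Rian* and *Mirg*. At these genes no peak passed the authors' threshold, which at unknown depth does not show that the protein was absent.

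Such counts move with gene length. The members have a median length of 30.7 kb, all annotated genes 3.53 kb and protein-coding genes 17.4 kb. Of protein-coding genes, 79.0%, 79.9% and 81.3% had a peak in the REX1, RNF12 WT and RNF12 mutant lists. The background also rose with length. Of the 10 members under 10 kb, 10, 9 and 10 had a peak, against 39.5%, 40.1% and 43.5% of all genes of that length. The 8 protein-coding members among them had a peak in each list, against 61.3%, 62.4% and 65.1% of the protein-coding genes of that length. Of the 23 members of 10 to 100 kb, 23, 19 and 23 had a peak, against 79.6%, 80.2% and 81.8% of all genes of that length, so RNF12 WT was close to the background there. Of the 8 members over 100 kb, all had a peak in each list, as did 95.4%, 95.6% and 97.7% of all genes of that length. For long members the presence of a peak therefore says little. Strength and position were not compared by length.

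A summit within 1 kb of an own TSS was found at 39 members for REX1 (37.3% of all genes), at 34 for RNF12 WT (38.2%), at 37 for the RNF12 mutant (38.3%) and at 34 for all 3 lists (30.6%). Of all 53843 genes 21755 are protein-coding, against 33 of the 41 members, and no share was taken for protein-coding genes alone. *Ndn*, a growth-suppressing member of the MAGE family on chromosome 7, had no such summit in any list, and neither had *Rtl1*. The highest *Ndn* summits were 2160 bp (REX1), 1963 bp (RNF12 WT) and 1948 bp (RNF12 mutant) downstream of the TSS, at a site that the RNF12 mutant list shared with each of the other lists.

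The highest peak of a member was in the top 10% of its list at 20 members for REX1 (17.6% of all genes), at 24 for RNF12 WT (19.1%) and at 7 for the RNF12 mutant (13.0%). The shares among the members were 48.8%, 58.5% and 17.1%. The shares of all genes include genes without a peak, which cannot reach the top 10%. Among all genes with a peak, 9490 of 29097, 10282 of 29408 and 7024 of 30911 reached it. The RNF12 mutant count is therefore not read as an excess. With highest peaks taken only within 1 kb of an own TSS the counts were 14, 15 and 5, against 9.50%, 11.6% and 7.47% of all genes. With ranks by −log10 q they were 20, 26 and 4, against 18.5%, 20.2% and 9.41%, so the RNF12 mutant count, 9.76% of the members, was then near the background. The 7 for the RNF12 mutant were *Ube3a*, *Commd1*, *Mest*, *Peg10*, *Sgce*, *Grb10* and *Inpp5f*, of which *Peg10* and *Sgce* share a peak. Members had a median of 5, 5 and 4 peaks in the 3 lists, against 3, 3 and 2 for all genes with a peak, and a gene with more peaks has more chances of a high one. The median percent rank of the highest peak was 89.7, 93.2 and 83.5 at the members, and 81.1, 82.1 and 77.7 at all genes with a peak.

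**Figure D3:**
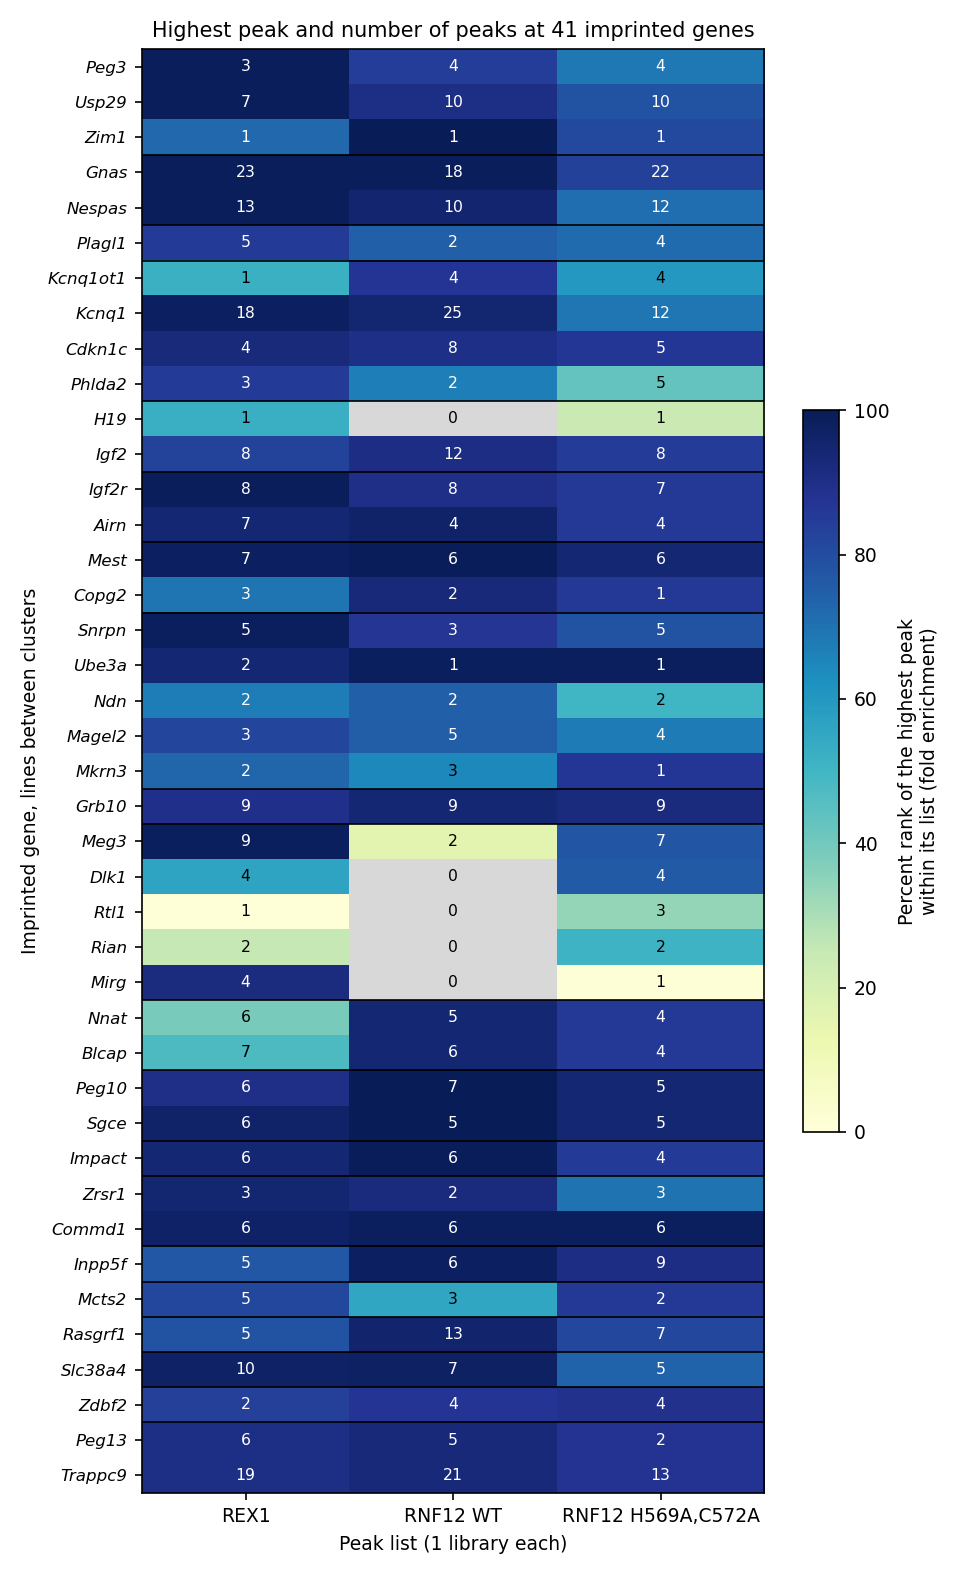
Percent rank of the highest peak (colour, 0 to 100; grey means no peak) and number of peaks (digits) at each of the 41 imprinted genes (rows, lines between clusters) in the 3 lists (columns). The grey cells are the 5 genes without an RNF12 WT peak, 4 of them in the *Dlk1* to *Mirg* block. The REX1 column is darkest at *Gnas*, *Nespas* and *Igf2r*, followed by *Peg3* and *Usp29*.

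The strongest REX1 peaks at imprinted genes were at *Igf2r*, *Nespas*, *Peg3*, *Meg3* and *Snrpn*, with fold enrichments of 14.5, 14.5, 13.9, 12.7 and 11.6. Each of these 5 overlapped a peak of both RNF12 lists. *Igf2r* encodes the receptor that clears IGF2 and is expressed from the maternal copy. Its REX1 peak, chr17:12688009-12688311, was tied with the *Nespas* peak at a percent rank of 99.1 and lay in an intron, 13125 bp downstream of the nearest *Igf2r* TSS, over the tandem repeat printed above. The 32 bases at its summit occur 2 times in the genome, so the sequence at the summit is not unique. The rest of the peak was not checked for copies.

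*Meg3* is a maternally expressed long non-coding RNA. Its REX1 peak, chr12:109542727-109543067, had a percent rank of 98.6 and lay in an exon 582 bp downstream of a TSS, with 1 AAGATGGC within 50 bp of the summit. *Snrpn* is expressed from the paternal copy and its promoter is the control region of its cluster. Its REX1 peak, chr7:60005058-60005251, had a percent rank of 98.1, a summit 40 bp upstream of a TSS and 1 ATGGCNGC within 50 bp. The summits of the overlapping *Snrpn* peaks were 25 bp upstream for RNF12 WT (percent rank 86.9) and 45 bp upstream for the RNF12 mutant (78.4). At *Snrpn* the 3 lists thus met at 1 site, which was also the highest *Snrpn* peak of each list.

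The strongest RNF12 WT peaks were at *Peg10*, *Zim1*, *Impact*, *Mest* and *Gnas*, with fold enrichments of 13.0, 10.7, 10.4, 10.3 and 9.39. Each overlapped a peak of both other lists and none had AAGATGGC or ATGGCNGC within 50 bp. *Peg10* is a retrotransposon-derived, paternally expressed gene needed in the placenta. Its RNF12 WT peak, chr6:4749302-4749462, ranked 59 of 97602 and lay in an intron 1982 bp downstream of the *Peg10* TSS. The RNF12 mutant summit there was 1971 bp downstream, with a fold enrichment of 18.9 and a percent rank of 94.3. *Sgce*, a sarcoglycan gene transcribed away from *Peg10*, shares this peak, while its own highest REX1 peak (9.46, percent rank 96.2) was in an intron, 27067 bp downstream of the nearest *Sgce* TSS, and met no RNF12 peak.

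The strongest RNF12 mutant peaks were at *Ube3a*, *Commd1*, *Mest*, *Peg10* and *Grb10*, with fold enrichments of 26.6, 26.4, 18.99, 18.9 and 17.0. Each overlapped a peak of both other lists. *Ube3a* encodes a ubiquitin ligase that is imprinted in neurons, and *Commd1* a copper metabolism protein. Both are expressed from both copies in most tissues, and their peaks were at the promoter, with RNF12 mutant summits 65 bp upstream and 22 bp downstream of a TSS. Their percent ranks were 98.4 and 98.3 for the RNF12 mutant and 98.5 and 98.1 for RNF12 WT. For REX1, *Ube3a* had 94.1, with a summit 205 bp downstream of a TSS, and the highest *Commd1* peak (96.8) was elsewhere, in an intron.

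At *Mest*, a paternally expressed hydrolase gene, the highest peaks of all 3 lists fell on 1 site. The summits were 112, 156 and 201 bp downstream of a TSS for REX1, RNF12 WT and RNF12 mutant. The fold enrichments were 11.3, 10.3 and 18.99 and the percent ranks 97.8, 99.5 and 94.4. Its neighbour *Copg2*, which encodes a coat protein of Golgi vesicles, had its highest RNF12 WT and RNF12 mutant peaks at its own promoter (92.9 and 85.6), while its highest REX1 peak (69.4) was beyond its 3′ end.

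Coincidence of the highest sites was otherwise limited where REX1 was concerned. The highest REX1 and RNF12 WT peaks of a member overlapped in 7 of 36 members with both, against 34.5% of all genes with both. For REX1 and the RNF12 mutant it was 8 of 41, against 43.7%, and for RNF12 WT and RNF12 mutant 18 of 36, against 49.4%. Members have more peaks than other genes, which leaves more ways for the highest ones to differ; the part of this in the counts was not tested.

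The *Kcnq1* cluster had the most peaks, with 25 REX1, 35 RNF12 WT and 22 RNF12 mutant peaks. It holds the potassium channel gene *Kcnq1*, its antisense RNA *Kcnq1ot1*, which silences the cluster on the paternal copy, and the growth-restraining genes *Cdkn1c* and *Phlda2*. At the *Kcnq1ot1* start, which is the control region, the REX1 summit was 53 bp downstream of the TSS at a percent rank of 51.7 by fold enrichment and 82.5 by −log10 q, and it overlapped peaks of both RNF12 lists. The highest peaks of the cluster were 13359 bp downstream of a *Kcnq1* TSS for REX1 (11.1, percent rank 97.8, no RNF12 peak), 44997 bp downstream of one for RNF12 WT (7.34, 94.9) and 3938 bp upstream of *Cdkn1c* for the RNF12 mutant (13.9, 86.7). At the *Cdkn1c* promoter itself, REX1 had a peak 17 bp from the TSS at a percent rank of 92.4 that met both RNF12 lists. The highest *Phlda2* peaks had percent ranks of 85.4, 67.0 and 42.8.

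*H19*, a maternally expressed long non-coding RNA, had 1 REX1 peak (percent rank 52.2), no RNF12 WT peak and 1 RNF12 mutant peak (23.6). *Igf2*, the fetal growth factor gene next to it, had 8, 12 and 8 peaks, the highest at percent ranks of 83.1, 90.8 and 84.9. Of the 17 merged sites of this cluster, 1 was in all 3 lists. In the *Igf2r* cluster, *Airn*, the antisense RNA that silences *Igf2r* on the paternal copy, had 7, 4 and 4 peaks. The RNF12 mutant peak at the *Igf2r* promoter (13.6, percent rank 85.9) met both other lists, and the highest RNF12 WT peak of the cluster lay in *Airn* (7.78, 96.5) and met neither.

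The remaining genes of the *Snrpn* cluster had weaker highest peaks than *Ube3a* in each list, and weaker ones than *Snrpn* except for the RNF12 mutant peak of *Mkrn3*. The highest peaks of *Ndn*, *Magel2* and *Mkrn3*, genes expressed from the paternal copy, had percent ranks of 67.2, 82.3 and 73.0 for REX1, 74.6, 75.3 and 64.8 for RNF12 WT, and 50.3, 67.7 and 86.4 for the RNF12 mutant. *Magel2* had its highest RNF12 WT and RNF12 mutant summits 25 and 22 bp downstream of the TSS, at a site that a REX1 peak also met.

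At *Grb10*, an adaptor of insulin and growth factor receptors, each list had 9 peaks. The highest REX1 and RNF12 WT summits flanked 1 TSS, 116 bp downstream (7.08, percent rank 89.2) and 103 bp upstream (7.21, 94.4), and the highest RNF12 mutant peak (17.0, 92.2) was at another promoter, 266 bp upstream of a TSS. *Nnat*, a brain proteolipid gene inside an intron of *Blcap*, had its strongest peaks in the RNF12 lists. Its highest RNF12 WT and RNF12 mutant peaks were 381 and 324 bp downstream of the TSS, at percent ranks of 94.4 and 85.7. The highest REX1 peak of the pair, 1461 bp upstream of a *Blcap* TSS, was at 47.4 by fold enrichment and at 74.3 by −log10 q.

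Among the clusters of 1 or 2 genes, *Impact*, a regulator of translation, had its highest peaks at promoters, at percent ranks of 94.4, 99.5 and 85.2. The REX1 summit was 24 bp downstream of 1 TSS, and the RNF12 WT and RNF12 mutant summits were 53 and 78 bp upstream of another. *Slc38a4*, an amino acid transporter gene, had REX1 and RNF12 WT summits 243 and 213 bp upstream of a TSS at 97.1 and 97.4, without an RNF12 mutant peak there; its highest RNF12 mutant peak was 1373 bp downstream of a TSS at 73.5. *Zrsr1*, a retrogene in an intron of *Commd1*, had its highest peaks at 94.8, 92.1 and 69.8. At *Inpp5f*, a phosphatase gene, they were at 76.8, 97.7 and 90.8; the 32 bases at the last summit occur 376 times in the genome.

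*Mcts2*, a retrogene in an intron of *H13*, had its highest peaks at percent ranks of 81.5, 55.4 and 85.9. *Rasgrf1*, an exchange factor for Ras, had 5, 13 and 7 peaks with the highest at 78.4, 95.3 and 81.3, and 9 of its 17 merged sites were RNF12 WT alone. *Zdbf2*, a zinc finger gene, had its highest peaks at 83.9, 87.5 and 88.9, of which the RNF12 WT one stood on a word of 32 bases with 28796 copies. *Peg13*, a non-coding RNA in an intron of *Trappc9*, carried the highest peak of both genes in every list, at 90.3, 93.2 and 87.8. The RNF12 WT and RNF12 mutant summits there were 271 and 272 bp downstream of the *Peg13* TSS. *Plagl1*, a zinc finger gene that regulates other imprinted genes, had 5, 2 and 4 peaks, the highest at 85.5, 74.4 and 71.7. The highest RNF12 WT and RNF12 mutant peaks of *Plagl1* lay within 65 bp of a TSS with ATGGCNGC within 50 bp of the summit, and a REX1 peak met both.

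The *Dlk1* to *Mirg* cluster on chromosome 12 was where the lists parted most. It had 20 REX1 peaks, 17 RNF12 mutant peaks and 2 RNF12 WT peaks, and 1 of its 31 merged sites was in all 3 lists. *Dlk1*, a paternally expressed gene for a Notch ligand-like protein, had 4 REX1 peaks, 4 RNF12 mutant peaks and no RNF12 WT peak. *Rtl1*, *Rian* and *Mirg*, a retrotransposon-derived gene and the hosts of small RNAs, had 1, 2 and 4 REX1 peaks, and 3, 2 and 1 RNF12 mutant peaks. *Meg3* was alone in having RNF12 WT peaks, 2 of them, and the higher, over the strong REX1 peak, had a fold enrichment of 3.41 and a percent rank of 16.0, or 42.7 by −log10 q. The highest RNF12 mutant peak of the cluster was also in *Meg3*, 3703 bp downstream of a TSS (10.8, percent rank 77.3), and met neither other list.

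The whole of chromosome 12 was thin in the RNF12 WT list. It had 19.1 RNF12 WT peaks per Mb and chromosome 10 had 23.5, while the other chromosomes had 19.3 (X) to 65.6 with a median of 42.6. REX1 had 49.0 and 34.8 peaks per Mb on chromosomes 12 and 10, and the RNF12 mutant 35.8 and 35.7. Of the 2480 genes of chromosome 12, 37.9% had an RNF12 WT peak, 56.0% a REX1 peak and 54.8% an RNF12 mutant peak. The low count at *Dlk1* to *Mirg*, and the 2 RNF12 WT peaks at *Plagl1* on chromosome 10, moved with these chromosome-wide values, whose part in them was not tested. On the other chromosomes, *H19* was the single member without an RNF12 WT peak.

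**Figure D4:**
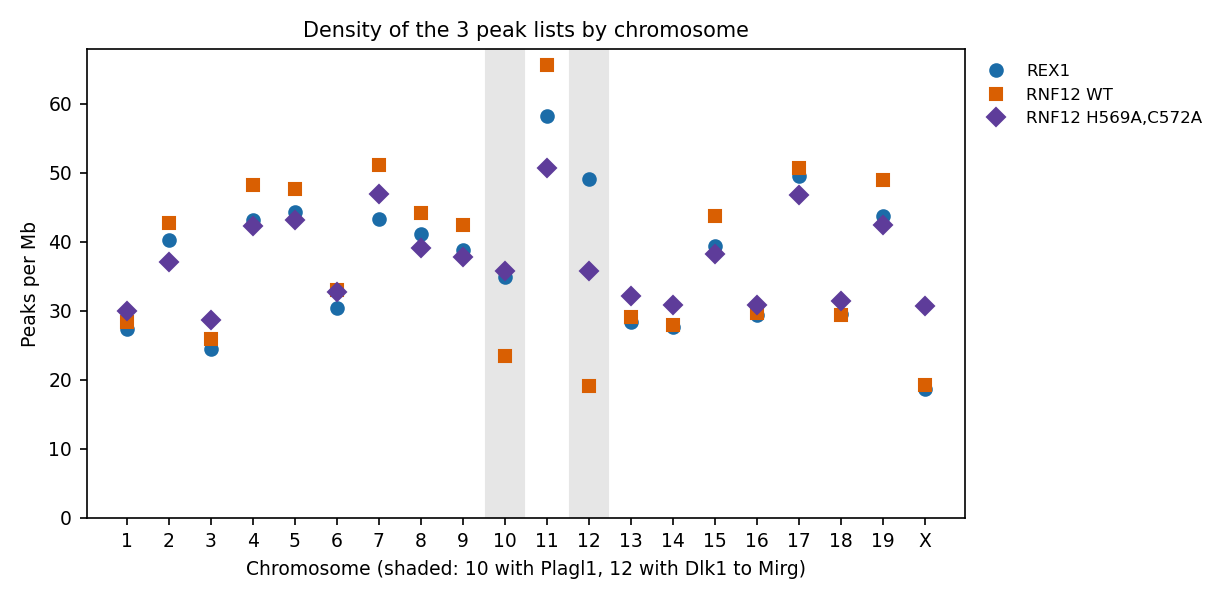
Peaks per Mb (vertical axis) on each chromosome (horizontal axis) for REX1 (circles), RNF12 WT (squares) and RNF12 mutant (diamonds), with the chromosomes of *Plagl1* and of the *Dlk1* to *Mirg* cluster shaded. RNF12 WT stands at 19.1 on chromosome 12 and 23.5 on chromosome 10, below both other lists there.

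Counted as peaks, the members held 204 REX1, 202 RNF12 WT and 180 RNF12 mutant peaks, or 69.8, 69.1 and 61.6 per Mb. All gene windows together held 51.3, 54.0 and 45.5 per Mb. Of the member peaks, 58.8%, 56.4% and 60.0% had the summit within 1 kb of a TSS of any gene, against 45.2%, 46.9% and 44.1% of all peaks at genes. These shares are descriptions with no test, since neighbouring peaks share a locus and are not independent.

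The strength of the peaks differed less. The median percent rank of all member peaks was 53.9 for REX1, 62.9 for RNF12 WT and 46.4 for the RNF12 mutant, against 49.3, 52.1 and 48.5 for peaks at all genes. The spread within the members was wide, with middle ranges, from the first to the third quartile, of 24.2 to 81.2, 34.1 to 82.7 and 21.3 to 69.0.

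The share of peaks met by another list was somewhat higher at the members than at all genes in each of the 6 pairings. These count each pair of lists from both sides and were not tested. The 95% Wilson intervals cover counting error only, and all but that of the mutant peaks met by REX1 include the value at all genes. Member peaks also lay more often near a TSS, as given above, which was not taken into account. RNF12 WT peaks met 47.5% of the member REX1 peaks (interval 40.8% to 54.4%) by at least 1 bp, and RNF12 mutant peaks met 48.0% (41.3% to 54.9%), against 42.5% and 41.7% at all genes. Among the RNF12 WT peaks of the members, 46.0% (39.3% to 52.9%) were met by REX1 and 54.0% (47.1% to 60.7%) by the mutant, against 42.8% and 51.7%. Among the mutant peaks of the members, 48.9% (41.7% to 56.1%) were met by REX1 and 56.1% (48.8% to 63.2%) by RNF12 WT, against 40.6% and 50.5%. The shares depended on what counted as overlap: they were 17.2% to 35.0% when 50% of both peaks had to overlap and 29.9% to 40.6% with summits within 100 bp. Shares at all genes are not given under these rules, so whether the members were still higher was not tested.

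Merged over the lists, the member peaks made 336 sites. All 3 lists were present at 56, REX1 with RNF12 WT at 18, REX1 with RNF12 mutant at 16, and both RNF12 lists without REX1 at 33. REX1 was alone at 87 sites, RNF12 WT at 69 and the RNF12 mutant at 57. Counted as peaks, 42.6%, 34.2% and 31.7% of the member peaks met neither other list, against 48.7%, 38.7% and 41.9% of peaks at all genes, and 38.2%, 34.2% and 36.7% met both, against 32.9%, 33.2% and 33.0%. Each of the 20 clusters had at least 1 site with all 3 lists. A cluster held 4 to 46 sites, and no share was taken for other regions of like size. This count is therefore not read as a trait of imprinted clusters.

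**Figure D5:**
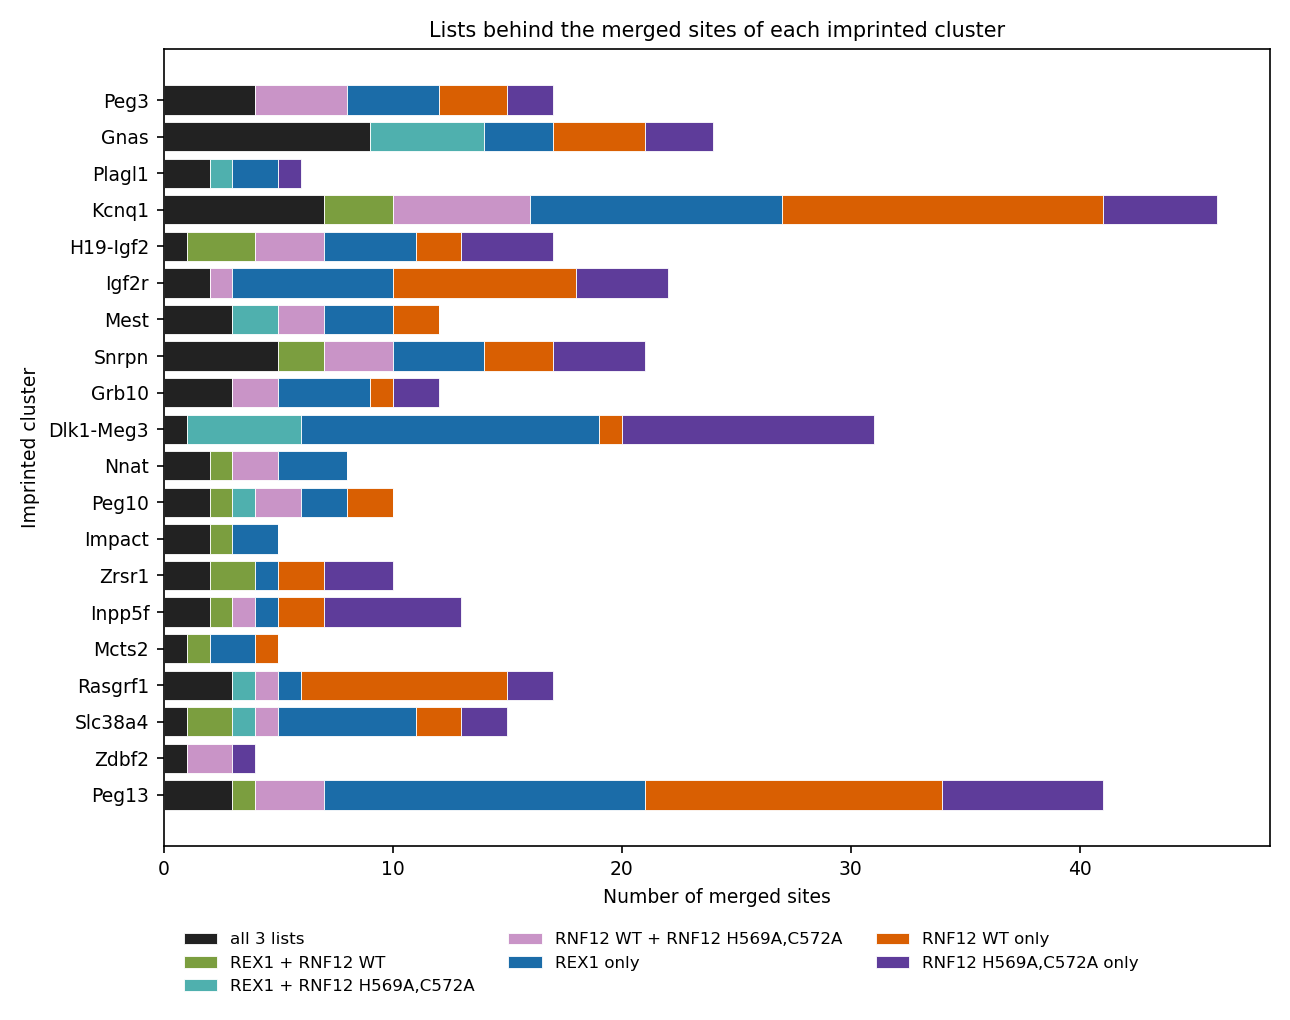
Number of merged sites (horizontal axis) in each of the 20 imprinted clusters (vertical axis), coloured by the lists whose peaks make up the site. *Gnas* has the most sites in all 3 lists, 9 of 24, and the *Dlk1* to *Mirg* cluster has 1 of 31.

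The cores described at *Peg3* were found at few peaks of imprinted genes in any list, and no difference from the whole lists is read from the shares. Within 50 bp of the summit, AAGATGGC was found at 4.41% of member REX1 peaks (interval 2.34% to 8.17%) and at 5.65% of all REX1 peaks, on either strand. ATGGCNGC was found at 5.39% and 8.30%, and either string, which can overlap in ATGGC, at 8.82% (5.65% to 13.5%) and 13.2%. For RNF12 WT, 6.44% (3.80% to 10.7%) of member peaks and 4.78% of all peaks had either string, and for the RNF12 mutant 5.00% (2.65% to 9.23%) and 3.76%. Within the REX1 peaks of the members, the 18 with a core had a median percent rank of 80.9 and the 186 without one 51.7, as the same split gave 72.2 and 47.3 over the whole list. Among the 18 were all 3 peaks of *Peg3* and the peaks described above at *Meg3* and *Snrpn*, along with peaks at *Gnas*, *Igf2*, *Phlda2*, *Mcts2*, *Peg13* and *Plagl1*. Weak peaks were among them too, at *Inpp5f* (percent rank 20.4), *Mirg* (3.33) and a second site of *Meg3* (13.9).

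The repeat content of the peaks is given without a test. Soft-masking, which marks repeats, reached to within 50 bp of the summit at 18.6%, 17.8% and 30.6% of member peaks in the REX1, RNF12 WT and RNF12 mutant lists, against 31.6%, 28.0% and 48.0% of peaks at all genes. The 32 bases at the summit were unique in the genome at 199 of 204 (97.5%), 190 of 202 (94.1%) and 150 of 180 (83.3%) member peaks. Of the peaks at all genes, 90.7%, 90.1% and 62.4% were unique in this sense, and of the peaks in the whole lists 84.9%, 84.3% and 48.6%.

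Grouped by the parental copy they are known to be expressed from, 24 members are paternal and 13 maternal, with *Ube3a* and *Commd1* placed by the copy that is active where they are imprinted. The other 4, *Gnas*, *Grb10*, *Blcap* and *Inpp5f*, have products or tissues that differ in the expressed copy, and were kept apart. The 5 genes without an RNF12 WT peak were 2 paternal (*Dlk1* and *Rtl1*) and 3 maternal (*H19*, *Rian* and *Mirg*). The highest peak was in the top 10% of the list at 11 paternal and 8 maternal genes for REX1, at 13 and 7 for RNF12 WT and at 3 and 2 for the RNF12 mutant, where the 2 were *Ube3a* and *Commd1*. Over all genes, with or without a peak, the shares were 17.6%, 19.1% and 13.0%, so the RNF12 mutant counts of both groups were near that share. The median percent ranks of the highest peaks were 87.6 and 91.5 for REX1, 91.5 and 93.0 for RNF12 WT and 79.9 and 81.1 for the RNF12 mutant, with paternal genes given first.

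Proteins that guard imprints formed a list of 8 genes, and 7 of them had a peak in all 3 lists, against 43.7% of all genes. Of protein-coding genes alone, 79.0%, 79.9% and 81.3% had a peak in the REX1, RNF12 WT and RNF12 mutant lists. Gene length was not matched, so the count is not read as an excess. The gene not in all 3 lists was *Dppa3*, a protector of methylation in the zygote. It had a REX1 peak at a percent rank of 85.6 and no RNF12 peak. *Zfp445*, a zinc finger protein that binds imprinting control regions, had the highest REX1 peak of the list (14.1, percent rank 99.0), followed by *Yy1* (9.75, 96.5) and *Ctcf*, the insulator protein (8.15, 93.5). *Trim28*, the corepressor that zinc finger proteins recruit, had the highest RNF12 WT peak (9.35, 99.1) and the highest RNF12 mutant peak (27.3, 98.6), ahead of the histone methyltransferase gene *Setdb1* (26.0, 98.2).

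A further 33 genes reported as imprinted in mouse, many of them only in the placenta or brain, carried REX1 peaks at 29, RNF12 WT peaks at 32 and RNF12 mutant peaks at 32, with all 3 lists at 29. Over all genes these shares were 54.0%, 54.6%, 57.4% and 43.7%. Of protein-coding genes alone, 79.0%, 79.9% and 81.3% had a peak in the REX1, RNF12 WT and RNF12 mutant lists. Gene length was not matched, so the counts of the 33 are not read as an excess. Top 10% peaks were present at 11, 14 and 7 of the 33, against 17.6%, 19.1% and 13.0% of all genes, with or without a peak. The highest were at *Ago2*, an effector of small RNAs, for REX1 (16.7, percent rank 99.5), at *H13*, a signal peptide peptidase gene, for RNF12 WT (9.09, 98.9) and at *Gab1*, a signalling adaptor, for the RNF12 mutant (19.8, 95.1).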

How the data were processed

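Per the labels and the submitters' processing notes, the authors trimmed reads with Trim Galore 0.6.7, aligned them to mm10 with Bowtie2 2.5.0, handled them with SAMtools 1.10 and called peaks with MACS2 2.2.7.1. The deposited lists give each peak a fold enrichment, the ratio of signal at the summit to the control, and the authors' −log10 p-value and −log10 q-value; a deposited score column was not used. The smallest −log10 q was 1.31 in each list. The 41 members and all lists of genes were chosen with earlier results of these data known. All members are accounted for. The 5 with the highest fold enrichment per list, the highest peak of every cluster and list, members without a peak and the 3 highest genes of the other lists were named. Groupings by expressed copy, the letters ATGGC and the copies of 32 bases were added after the data were seen.

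Coordinates count from 1. Sequence came from RefSeq GRCm38.p6. Overlap meant at least 1 bp, and strings were searched on both strands. Ties in fold enrichment received their mean rank. The scripts ran under Python 3.11.15 with pandas 2.3.3, numpy 2.4.6 and scipy 1.17.1. On simulated data, 2000 of 2000 planted overlaps and 50 of 50 planted strings were found. Samples came from separate cell lines with 1 library per list. Alternatives were stricter q-values, other overlaps, windows and rankings.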

Additional observations from a re-analysis of the deposited data

How the results depend on the processing

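Over all results and alternatives, 55 values stayed within the limits set for a change and 31 moved; no direction was set, since no test was made. With the 20000 peaks of highest −log10 q per list, RNF12 H569A,C572A peaks were found at 19 members and peaks of all 3 lists at 14; these lists hold fewer peaks by construction. With highest peaks taken only within 1 kb of a TSS, 15 members had an RNF12 WT peak in the top 10%, and with ranks by −log10 q, 4 had an RNF12 H569A,C572A peak there. The overlap shares, in the order REX1 with RNF12 WT, REX1 with RNF12 H569A,C572A, RNF12 WT with REX1, RNF12 WT with RNF12 H569A,C572A, RNF12 H569A,C572A with REX1 and RNF12 H569A,C572A with RNF12 WT, were 17.2%, 19.1%, 17.3%, 31.2%, 21.7% and 35.0% when 50% of both peaks had to overlap. They were 30.4%, 29.9%, 30.7%, 36.1%, 33.9% and 40.6% with summits within 100 bp, and 37.5%, 17.9%, 35.1%, 29.8%, 44.4% and 77.8% with the 20000 peaks. With −log10 q of at least 5 they moved to 40.3% for REX1 with RNF12 WT, 38.6% for RNF12 H569A,C572A with REX1 and 42.9% for RNF12 H569A,C572A with RNF12 WT. Overlap shares over peaks at all genes are not given under these alternatives, so whether the members still differed was not tested. Within 25 bp of the summit, AAGATGGC was at 1.96% of REX1 and 0.495% of RNF12 WT member peaks, and ATGGCNGC at 2.94% and 2.48%. The cause of these moves was not tested. Depth is unknown and limits every absence of a peak. No paired analysis was possible because each list comes from 1 library and no result comes from a test.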
